A study of Mus musculus with 12 samples.

Results

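The IL-6 family of cytokines and its receptor system was followed in mouse hip cartilage through 10 genes: the ligands Il6, Il11, Lif and Clcf1, the receptor chains Il6st, Il6ra, Lifr and Osmr, and the signalling genes Stat3 and Socs3. Members were chosen by symbol. Every probe carrying 1 of the 10 symbols was taken, which gave 25 of the 45281 probes on the array and 19 of the 21004 probes in the normalized table, and all 10 genes had at least 1 probe there. The table holds 15424 symbols in all.

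RNA from hip cartilage of C57BL6 mice aged 4 to 6 weeks was hybridized to Illumina mouse BeadChips in 4 groups of 3 arrays. WT and Mapk9 KO hips were each studied as control and as injured tissue. Mapk9 encodes JNK2, a c-Jun N-terminal kinase, and the knockout is labelled only as MAPK9 KO, so how the allele was made and in which cells it is lost are not given in the sources used here. Injury was the avulsion of the femoral epiphysis. By the study's description, avulsed cartilage was either snap-frozen without culture (control) or kept for 4 h in serum-free culture (injured). Control tissue had thus been avulsed too, although the study also calls it uninjured. Injury and culture cannot be told apart in any comparison below. The study's methods describe each replicate as a pool of 6 hips from 3 mice, without naming the Mapk9 KO arrays.

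Cytokines of this family signal through gp130, the shared receptor chain encoded by Il6st. IL-6 and IL-11 bind their own alpha chains (Il6ra and Il11ra1) and then gp130, whereas LIF, CLCF1 and oncostatin M bring gp130 together with the LIF receptor or the oncostatin M receptor. Bound receptors activate JAK kinases, which phosphorylate STAT3, and STAT3 induces Socs3, an inhibitor that binds gp130 and closes the loop. In joints, IL-6 and oncostatin M are known for acting on chondrocytes and synovial cells, where they induce matrix-degrading enzymes.

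The sequences upstream of the start are shown for the 5 members that passed the test after injury in both genotypes (Il6, Il11, Lif, Osmr and Socs3), because transcription factors of this pathway (STAT3) and of the JNK pathway (AP-1) have short known motifs that can be looked for there. Each is the 250 bases before the annotated start, read 5′ to 3′ on the gene's strand, from RefSeq on GRCm38.p6. Capitals mark matches on either strand to the AP-1 motif TGANTCA, the CRE motif TGACGTCA, the STAT motif TTCNNNGAA or the NF-kB motif GGGNNNNNCC. Il6 lies at chr5:30012864-30013113 on the plus strand, Il11 at chr7:4782858-4783107 (first of 2 annotated starts) and chr7:4778142-4778391 (second), both on the minus strand, Lif at chr11:4257318-4257567 on the plus strand, Osmr at chr15:6874314-6874563 on the minus strand and Socs3 at chr11:117969367-117969616 on the minus strand.
Il6: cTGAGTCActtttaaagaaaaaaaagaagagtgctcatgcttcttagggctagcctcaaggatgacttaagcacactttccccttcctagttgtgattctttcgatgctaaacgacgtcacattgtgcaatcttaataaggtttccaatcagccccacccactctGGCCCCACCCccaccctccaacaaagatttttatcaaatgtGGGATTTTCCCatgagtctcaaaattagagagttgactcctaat
Il11, first start: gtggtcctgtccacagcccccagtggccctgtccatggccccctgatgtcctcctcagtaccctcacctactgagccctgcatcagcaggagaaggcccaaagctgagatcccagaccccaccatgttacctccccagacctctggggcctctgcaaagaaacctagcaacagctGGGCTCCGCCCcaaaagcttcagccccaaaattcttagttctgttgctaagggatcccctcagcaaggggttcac
Il11, second start: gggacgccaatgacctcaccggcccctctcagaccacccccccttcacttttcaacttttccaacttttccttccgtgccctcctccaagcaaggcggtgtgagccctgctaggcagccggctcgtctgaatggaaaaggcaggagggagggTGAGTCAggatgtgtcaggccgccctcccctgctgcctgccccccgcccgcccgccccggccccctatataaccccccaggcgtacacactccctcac
Lif: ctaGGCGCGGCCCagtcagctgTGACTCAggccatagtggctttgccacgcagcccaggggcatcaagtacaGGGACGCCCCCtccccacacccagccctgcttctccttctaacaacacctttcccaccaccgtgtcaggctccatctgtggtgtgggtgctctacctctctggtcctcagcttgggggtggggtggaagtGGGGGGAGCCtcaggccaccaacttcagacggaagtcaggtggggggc
Osmr: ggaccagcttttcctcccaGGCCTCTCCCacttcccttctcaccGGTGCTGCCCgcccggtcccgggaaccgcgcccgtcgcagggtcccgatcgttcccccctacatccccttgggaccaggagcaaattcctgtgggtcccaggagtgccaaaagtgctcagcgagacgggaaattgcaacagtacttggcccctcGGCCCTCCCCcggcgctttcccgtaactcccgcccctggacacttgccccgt
Socs3: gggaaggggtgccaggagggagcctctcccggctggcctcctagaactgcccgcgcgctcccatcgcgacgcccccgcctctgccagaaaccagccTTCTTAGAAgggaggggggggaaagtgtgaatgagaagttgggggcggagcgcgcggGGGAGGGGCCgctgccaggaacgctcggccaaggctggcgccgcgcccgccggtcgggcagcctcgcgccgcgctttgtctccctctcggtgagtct
The AP-1 letters were found in Il6 (249 bases before the start), in the second Il11 window (98 bases) and in Lif (228 bases), and not in the first Il11 window or in any window of Il6st, Il6ra, Lifr, Osmr, Socs3 or Stat3. The STAT letters were found in Socs3 (154 bases before the start), and the CRE letters in none of these windows. Among 27025 mouse promoter windows of the same length, 6.87% held the AP-1 letters, 7.18% the STAT letters, 1.62% the CRE letters and 45.4% the NF-kB letters, so a match to the last is common. Some NF-kB matches overlap each other. A match is a description of these letters and not a measured binding site. Clcf1 had no entry in the promoter table.

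Values below are the deposited normalized signals on a log2 scale, and 1 unit is a 2-fold difference. A probe counted as detected on an array where its detection p-value was under 0.05. For genes with several probes, the probe with the highest mean over the 12 arrays is the main probe and decides the call. A difference passed where the fold change was above 2 and the adjusted p under 0.05, from limma, adjusted by Benjamini-Hochberg over the 21004 probes of the table. Levels of different probes cannot be set against each other.

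After injury, 5 of the 10 genes rose in WT (Il6, undetected on every WT array, and Il11, Lif, Osmr and Socs3) and 6 rose in Mapk9 KO (the same 5 and Clcf1). On main probes none fell in either genotype by limma or by the methods' t-test, and 1, Lifr, was lower with an unadjusted p under 0.05 in both, a threshold that 37.2% of all main probes met in either direction in WT and 46.8% in Mapk9 KO. In Mapk9 KO the main Lifr probe missed only the fold limit (adjusted p = 0.00249, limma), and in WT the other 2 Lifr probes passed as lower. Over all 15424 main probes, 7.51% rose and 7.16% fell in WT, and 9.01% rose and 9.55% fell in Mapk9 KO. The median log2 difference of the 10 genes was 1.04 in WT and 1.53 in Mapk9 KO, beside medians of -0.02 and -0.04 over all main probes. Il6, Il11, Lif and Clcf1 were undetected on every control array, and any array that detected them was an injured one. How probes were chosen for the normalized table is not known. These genes may have entered it through signal on injured arrays only, so the counts and medians of members are a description. With probes detected on fewer than 3 arrays left out, Il6 dropped out, and 4 rose in WT and 5 in Mapk9 KO. Of the 6 members detected in both groups, 2 rose in each genotype, Osmr and Socs3. With such groups set to the lowest detected signal, the medians of the 10 genes were 0.59 and 0.71.

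**Figure D1:**
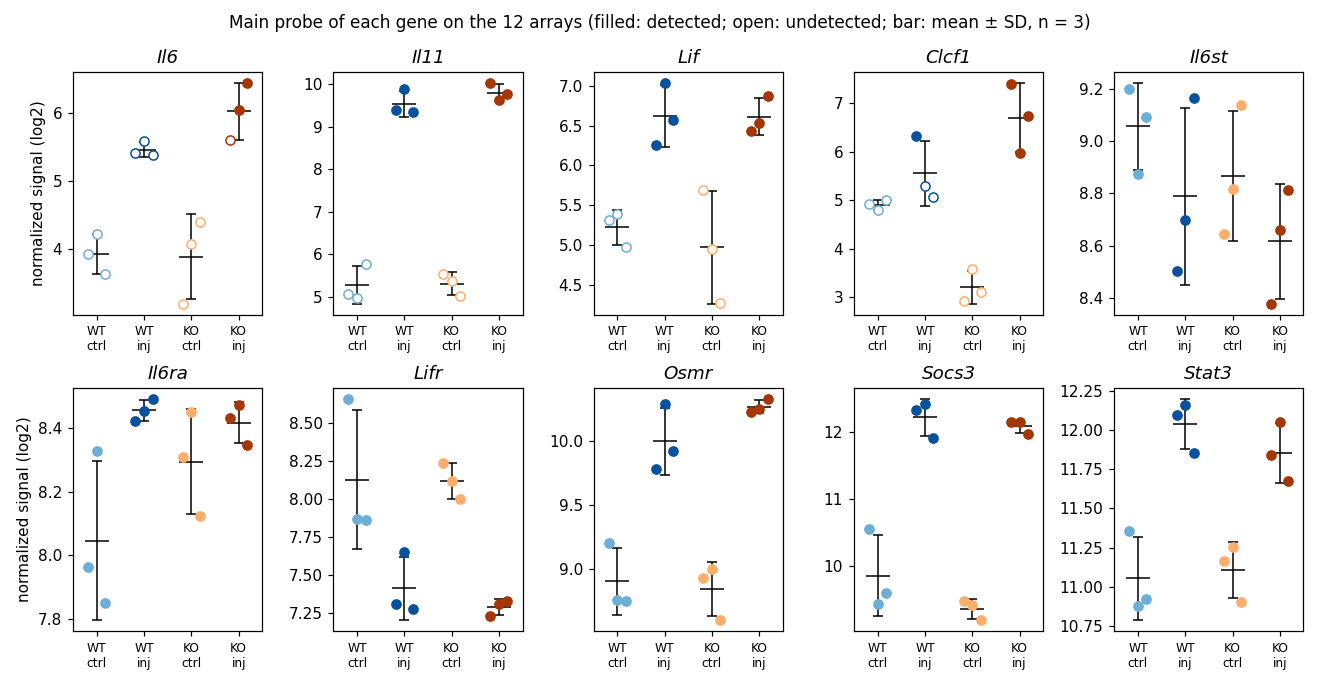
Normalized signal (log2) of the main probe of each member on every array, by group (WT or Mapk9 KO, control or injured). Filled points were detected and open points undetected, and the bar gives the mean ± SD of 3 arrays. The 6 injured arrays lie above the 6 control arrays for Il6, Il11, Lif, Clcf1 (by 5.06 against 5.01 at the nearest), Osmr, Socs3 and Stat3, and below them for Lifr.

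Among the ligands, Il11 had the clearest change. IL-11 acts on stromal and skeletal cells, bone and cartilage included. Its probe gave 5.07, 4.98 and 5.78 in the WT controls and 9.40, 9.90 and 9.34 in the injured WT hips. In Mapk9 KO it gave 5.54, 5.37 and 5.01 in controls and 10.03, 9.63 and 9.76 after injury. Every injured array was far above every control array, and the injured groups of both genotypes overlapped. Because no control array detected it, the rise is given as a bound from group means on the deposited scale: at least 13.0-fold in WT (adjusted p = 5.9e-06, limma). Here and below, the adjusted p beside such a bound is that of the fitted difference. The bound itself was not tested and leaves out the spread between arrays and other processing. In Mapk9 KO it was at least 14.7-fold (adjusted p = 1.46e-07). The fitted log2 differences of 4.27 and 4.50 were 2.48 and 2.76 with quantile normalization and no background correction, and still passed.

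Lif encodes leukaemia inhibitory factor, a ligand of the LIF receptor. Its main probe gave 5.31, 5.38 and 4.97 in WT controls and 6.25, 7.04 and 6.57 in injured WT hips. The Mapk9 KO values were 5.68, 4.95 and 4.27 in controls and 6.43, 6.53 and 6.87 after injury. Again control and injured arrays did not overlap, and the probe was detected on the 6 injured arrays only. Lif rose at least 1.71-fold in WT (adjusted p = 0.00262, limma) and at least 1.60-fold in Mapk9 KO (adjusted p = 0.00175). With the methods' t-test neither difference passed (adjusted p = 0.0507 and 0.0607), and with quantile normalization without background correction the log2 differences were 0.54 and 0.55, under the fold limit. A second Lif probe, also detected on the injured arrays alone, rose at least 1.22-fold and at least 1.19-fold. The other 3 Lif probes lie outside the normalized table and were detected on no array.

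Il6, the founding cytokine of the family, was close to background throughout. Its single probe gave 3.92, 4.21 and 3.63 in WT controls and 5.41, 5.60 and 5.39 in injured WT hips, all undetected. In Mapk9 KO it gave 3.19, 4.08 and 4.39 in controls and 5.61, 6.05 and 6.44 after injury, and only the last pair of arrays detected it. The injured arrays were higher without overlap in both genotypes. The fitted log2 difference was 1.54 in WT (SE 0.21, adjusted p = 0.000689, limma), for which no fold is given because neither group was detected. In Mapk9 KO the fitted difference was 2.14 (SE 0.31, adjusted p = 0.000324, limma). The bound there was at least 1.07-fold, from a mean that includes the undetected injured array. The WT difference was 0.34 with quantile normalization of the intensities and no background correction, and with normexp background correction (neqc) it was 0.62, both under the fold limit. The Mapk9 KO difference, 2.14 in the fit, was 0.53 with that quantile normalization and did not pass.

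Clcf1, which encodes cardiotrophin-like cytokine factor 1, a ligand acting through gp130 and the LIF receptor, gave 4.92, 4.80 and 5.01 in WT controls and 6.32, 5.30 and 5.06 in injured WT hips. In Mapk9 KO it gave 2.93, 3.59 and 3.11 in controls and 7.41, 5.98 and 6.75 after injury. Only 1 injured WT array detected it, and all 3 injured Mapk9 KO arrays did. Clcf1 rose at least 1.71-fold in Mapk9 KO (adjusted p = 1.43e-05, limma), and the second probe of the gene rose at least 1.22-fold. With quantile normalization and no background correction the log2 difference was 0.94, under the fold limit. In WT the log2 difference was 0.65 (SE 0.31, adjusted p = 0.149), which did not pass. On the second probe it was 1.14 (SE 0.46, adjusted p = 0.103).

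Among the receptor chains, Il6st was detected everywhere and no change passed the test. It gave 9.20, 8.87 and 9.09 in WT controls and 8.50, 8.70 and 9.16 after injury, and 8.65, 8.82 and 9.14 in Mapk9 KO controls and 8.38, 8.66 and 8.81 after injury. Control and injured arrays overlapped in both genotypes. The log2 difference was -0.27 in WT (95% interval -0.77 to 0.24) and -0.25 in Mapk9 KO (-0.69 to 0.19), so a 2-fold change in either direction lies outside both intervals.

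Il6ra, the alpha chain that binds IL-6, gave 7.96, 8.33 and 7.85 in WT controls and 8.42, 8.45 and 8.49 after injury. The injured WT arrays were all higher, and the log2 difference of 0.41 (95% interval -0.04 to 0.86, adjusted p = 0.173, limma) did not pass. In Mapk9 KO the values were 8.31, 8.45 and 8.12 in controls and 8.43, 8.47 and 8.35 after injury, with overlap and a difference of 0.12 (-0.26 to 0.50, adjusted p = 0.618). Neither of the other Il6ra probes passed in either genotype.

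Osmr, a receptor chain for oncostatin M that also serves IL-31, was the member receptor that rose. Its main probe gave 9.20, 8.76 and 8.75 in WT controls and 9.78, 10.29 and 9.92 after injury. The Mapk9 KO arrays gave 8.93, 9.0 and 8.60 in controls and 10.22, 10.25 and 10.33 after injury. The groups did not overlap in either genotype. The rise was 2.14-fold in WT (log2 1.10, SE 0.22, adjusted p = 0.00612, limma) and 2.68-fold in Mapk9 KO (log2 1.42, SE 0.18, adjusted p = 1.14e-04). The WT call did not hold without WT injured replicate 2 (0.95), with quantile normalization and no background correction (0.89) or with the methods' t-test (adjusted p = 0.0550). A second Osmr probe was undetected in controls and rose at least 1.15-fold in WT and at least 1.32-fold in Mapk9 KO.

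Lifr, the LIF receptor chain, was the member whose main probe was lower on every injured array. Its main probe gave 8.66, 7.87 and 7.86 in WT controls and 7.31, 7.65 and 7.28 after injury. In Mapk9 KO it gave 8.24, 8.12 and 8.0 in controls and 7.23, 7.31 and 7.33 after injury. The injured arrays were lower without overlap, yet neither difference passed: it was -0.72 in WT (SE 0.26, adjusted p = 0.0669, limma) and -0.83 in Mapk9 KO (SE 0.16, adjusted p = 0.00249), the latter within the fold limit. The probes disagreed on the call. The other 2 Lifr probes were undetected on every injured WT array and passed there, 1 lower by at least 1.78-fold (adjusted p = 0.00504) and the other by at least 1.34-fold (adjusted p = 0.0349). In Mapk9 KO their differences of -0.44 and -0.72 did not pass.

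**Figure D2:**
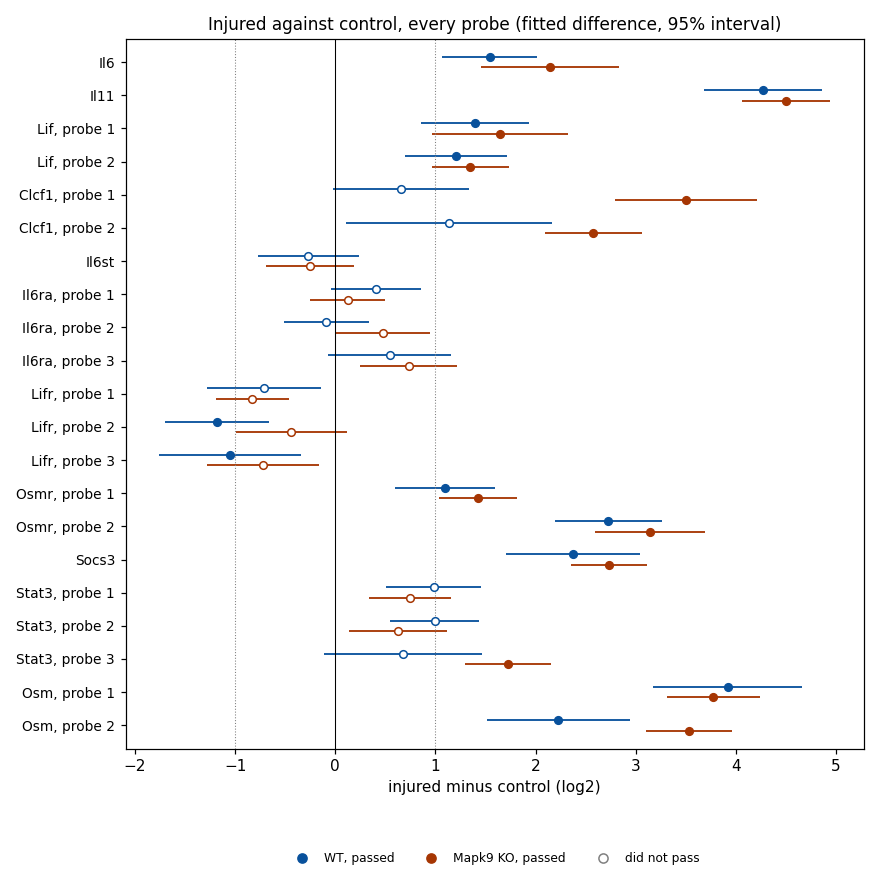
Injured minus control (log2) for every probe of the 10 members and of Osm, with the 95% interval of the limma fit, in WT (blue) and Mapk9 KO (brown); probes of a gene are numbered from the highest mean. Filled points passed the test, dotted lines mark a 2-fold difference, and for probes undetected in controls the fitted difference shown is larger than the bound in the text. Il11 lies farthest to the right among the members, at 4.27 and 4.50, and the 3 Lifr probes lie to the left of 0.

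Of the signalling genes, Socs3 rose in both genotypes from levels detected on every array. It gave 10.55, 9.42 and 9.59 in WT controls and 12.33, 12.43 and 11.91 after injury. The Mapk9 KO values were 9.47, 9.41 and 9.19 in controls and 12.15, 12.15 and 11.97 after injury. WT control replicate 1 was the highest of the control arrays, and all injured arrays lay above it. The rise was 5.18-fold in WT (log2 2.37, SE 0.30, adjusted p = 0.000421, limma) and 6.66-fold in Mapk9 KO (log2 2.74, SE 0.17, adjusted p = 9.77e-07).

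Stat3, the transcription factor that the receptors activate, was higher in all injured arrays by less than the fold limit. Its main probe gave 11.36, 10.88 and 10.92 in WT controls and 12.09, 12.16 and 11.85 after injury, and 11.16, 11.25 and 10.90 in Mapk9 KO controls and 11.84, 12.05 and 11.67 after injury. The log2 difference was 0.98 in WT (SE 0.21, adjusted p = 0.00786, limma) and 0.75 in Mapk9 KO (SE 0.18, adjusted p = 0.0083). The WT value sits just inside the limit: it was 1.13 without WT control replicate 1, 1.07 without WT injured replicate 3 and 1.03 with array medians subtracted, each of which passed. Another of the 3 Stat3 probes rose in Mapk9 KO, by 1.72 (SE 0.20, adjusted p = 5.88e-05), and differed by 0.67 in WT (SE 0.36, adjusted p = 0.199). On the array, STAT3 protein and its phosphorylation were not measured.

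The library labels were checked on the targeted gene. The main Mapk9 probe gave 10.88, 10.90 and 10.50 in WT controls and 9.14, 9.28 and 9.15 in Mapk9 KO controls, a log2 difference of -1.57 (adjusted p = 0.0151, limma), and in injured hips the difference was again -1.57 (adjusted p = 0.00485). This probe stayed detected on the knockout arrays, and a second Mapk9 probe was undetected on all 6 of them, on 2 of the 3 injured WT arrays as well, and on none of the WT controls.

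Genotype was then compared within control and within injured hips. In controls, 1 member passed, Clcf1, with a log2 difference of -1.70 (SE 0.23, adjusted p = 0.0152, limma) in Mapk9 KO, beside 0.11% of all main probes (17, and 305 or 1.98% without WT control replicate 3). Skeletal muscle markers moved with genotype in these arrays: the means of all 10 were higher in Mapk9 KO controls than in WT controls and the list means did not overlap (13.09 to 13.61 against 11.70 to 12.94), though none passed, and their part in the difference was not tested. Its probe was undetected on all 6 control arrays, so this is a difference between values below detection and no fold is given. With the replicate number as a block the adjusted p was 0.105 (0.0778% of main probes then passed), and without WT control replicate 1, Mapk9 KO control replicate 1 or Mapk9 KO control replicate 3 it was 0.119, 0.117 and 0.0798. The difference was -0.40 with neqc and -0.29 with quantile normalization and no background correction, and neither passed. For the other 9 members the differences in controls lay between -0.50 (Socs3) and 0.25 (Il6ra).

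In injured hips no member passed by limma or by the methods' t-test, and 2 (Clcf1 and Il6) had an unadjusted p under 0.05, as did 10.9% of all main probes. Over all main probes 0.169% passed, and with the replicate block 0.577%, the number rising from 26 to 89 with no member among them. It was also 89 without WT injured replicate 1. Clcf1 was higher in Mapk9 KO by 1.15 (95% interval 0.28 to 2.02, adjusted p = 0.282), with 1 of 3 injured WT arrays detected. Il6 was undetected on the injured WT arrays, and its fitted difference of 0.56 (0.08 to 1.05, adjusted p = 0.336) did not pass. For Il11 the difference was 0.26 (-0.19 to 0.71), for Lif -0.01 (-0.51 to 0.49), for Osmr 0.27 (-0.13 to 0.67), for Socs3 -0.13 (-0.54 to 0.27) and for Stat3 -0.18 (-0.57 to 0.21). On these main probes the 5 intervals leave out a 2-fold difference between genotypes. The probes of Stat3 disagreed: another Stat3 probe was higher in Mapk9 KO by 0.79 (0.26 to 1.31, adjusted p = 0.244), which did not pass and includes a 2-fold difference. The third was at -0.24. Probes of Il6ra and Lifr disagreed as well, with main probes at -0.04 and -0.12. The other Il6ra probes were at 0.63 and 0.21 and the other Lifr probes at 0.50 and 0.48, and none passed.

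**Figure D3:**
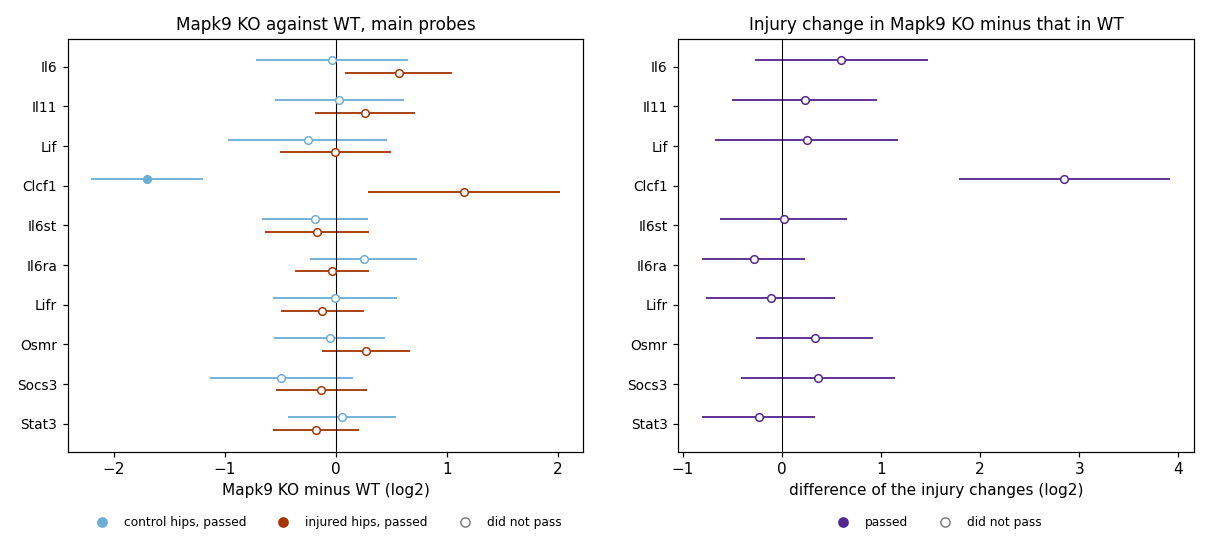
Left, Mapk9 KO minus WT (log2) for the main probe of each member in control hips (light blue) and injured hips (brown); right, the injury change in Mapk9 KO minus that in WT (log2), both with 95% intervals of the limma fit. Filled points passed the test, and values below detection enter as fitted (Il6 on all injured WT arrays, and Il6, Il11, Lif and Clcf1 on all control arrays). Clcf1 stands apart, at -1.70 in control hips and at 2.85 for the difference of the injury changes.

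Whether the injury change itself differed between genotypes was tested as an interaction over all 12 arrays. No member passed by limma or by the methods' t-test, as was true of all main probes (0%), and 1 member, Clcf1, had an unadjusted p under 0.05, as did 8.81% of all main probes. Its injury change was larger in Mapk9 KO by 2.85 (SE 0.50, adjusted p = 0.267). With the replicate number as a block the adjusted p was 0.0368, and 0.441% of main probes then passed, and without WT control replicate 3 the adjusted p was 0.0223 with a difference of 2.80, and 1.15% of main probes then passed. With neqc the difference was 1.41 (adjusted p = 0.303), and with quantile normalization and no background correction it was 0.74 (adjusted p = 0.233). Much of this difference lies below detection: the Mapk9 KO controls averaged 3.21 and the WT controls 4.91, all undetected. On the second Clcf1 probe the interaction was 1.44 (SE 0.59, adjusted p = 0.434). For the main probes of the other members it lay between -0.29 (Il6ra) and 0.60 (Il6). Other probes of these genes gave 1.05 (Stat3, adjusted p = 0.452), 0.74 (Lifr, adjusted p = 0.521) and 0.57 (Il6ra, adjusted p = 0.516), and none passed. Each was opposite in sign to the main probe of its gene, at -0.24, -0.11 and -0.29. The remaining probes gave -0.37 (Stat3), 0.33 (Lifr) and 0.19 (Il6ra).

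Beyond the members, 44 further genes of the pathway were listed by role, and 38 were in the table. Of these, 11 rose and 0 fell in WT, beside 7.51% and 7.16% of all main probes, and 11 rose and 0 fell in Mapk9 KO, beside 9.01% and 9.55%. At an unadjusted p under 0.05, 2 were lower in WT (Pias3 and Stat5a) and 3 in Mapk9 KO, Birc5 and Il11ra1 among them, while 20 and 18 of the 38 met this threshold in either direction, beside 37.2% and 46.8% of all main probes. The median log2 difference of the 38 was 0.42 in WT and 0.34 in Mapk9 KO, beside -0.02 and -0.04 over all main probes. For the difference between genotypes, in control or injured hips, and for the interaction, none passed by limma, with or without the replicate block, or by the methods' t-test, and 4, 3 and 4 had an unadjusted p under 0.05, beside 6.38%, 10.9% and 8.81% of all main probes.

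The ligand Osm, oncostatin M, which signals through the chain encoded by Osmr, gave 8.18, 9.34 and 7.95 in WT controls and 12.52, 12.54 and 12.16 after injury. The Mapk9 KO values were 8.79, 8.71 and 8.44 in controls and 12.47, 12.74 and 12.06 after injury. No injured array overlapped a control array. It rose 15.1-fold in WT (log2 3.92, SE 0.33, adjusted p = 4.37e-05, limma) and 13.7-fold in Mapk9 KO (log2 3.78, SE 0.21, adjusted p = 4.68e-07). A second Osm probe was undetected in controls and rose at least 2.66-fold and at least 6.11-fold. The Osm probes disagreed on genotype: in injured hips Mapk9 KO minus WT was 0.01 on the main probe and 1.29 on the second (adjusted p = 0.184), and the interaction was -0.14 and 1.31 (adjusted p = 0.338), none of which passed. Ebi3, the shared subunit of IL-27 and IL-35, was the other of 5 further ligand genes to rise, by 2.16 in WT and 2.03 in Mapk9 KO.

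None of the 2 further receptor chains passed. At an unadjusted p under 0.05, Il27ra was higher in WT (0.56) and Il11ra1 was lower in Mapk9 KO. In either direction, 37.2% of all main probes met this threshold in WT and 46.8% in Mapk9 KO. Il11ra1, the chain that binds IL-11, differed by -0.39 in WT and -0.43 in Mapk9 KO. None of 8 kinases, adaptors and other STATs passed either, and 3 had an unadjusted p under 0.05 in each genotype, beside the same 37.2% and 46.8%. Jak2, a receptor-bound kinase, differed by 0.33 in WT and 0.64 in Mapk9 KO. Of 7 inhibitors, 2 rose in both genotypes, beside 7.51% of all main probes in WT and 9.01% in Mapk9 KO. Cish, a SOCS family member, rose by 1.33 and 1.74, and Ptpn2, a phosphatase that acts on JAKs and STATs, rose by 1.61 and 2.46. Socs1 differed by -0.41 in WT and 0.33 in Mapk9 KO, and its probe was undetected on all injured WT arrays and all Mapk9 KO control arrays.

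Of 16 known STAT3 target genes, 7 rose in each genotype, beside 7.51% of all main probes in WT and 9.01% in Mapk9 KO. Junb, which encodes an AP-1 subunit, rose by 2.64 in WT and 2.81 in Mapk9 KO. Cebpb, a transcription factor of the acute phase response, rose by 2.44 and 2.32, and Vegfa, an angiogenic factor, by 2.38 and 3.04. Bcl3 rose by 1.88 and 2.04, Icam1, an adhesion molecule, by 1.47 and 1.77, and Bcl6 by 1.11 and 1.17. Lrg1, a secreted glycoprotein of the acute phase, rose in WT by 1.60 and differed by 0.76 in Mapk9 KO, and its interaction of -0.84 did not pass (adjusted p = 0.413, limma). Myc rose in Mapk9 KO by 1.09 and differed by 0.79 in WT. Without WT control replicate 1 the Myc difference in WT was 1.08 and passed, and the call in Mapk9 KO was lost without Mapk9 KO control replicate 2 (0.71), Mapk9 KO injured replicate 1 (0.96) or Mapk9 KO injured replicate 3 (1.02), and with neqc on the table's or all probes (0.98), quantile normalization without background correction (0.41) or the methods' t-test (adjusted p = 0.147). Bcl6 in WT was 0.97 without WT control replicate 2, 0.97 with neqc on either set of probes and 0.91 with that quantile normalization, all under the fold limit. Icam1 in WT did not pass with the methods' t-test (adjusted p = 0.0555). Many of these genes also answer to other pathways.

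**Figure D4:**
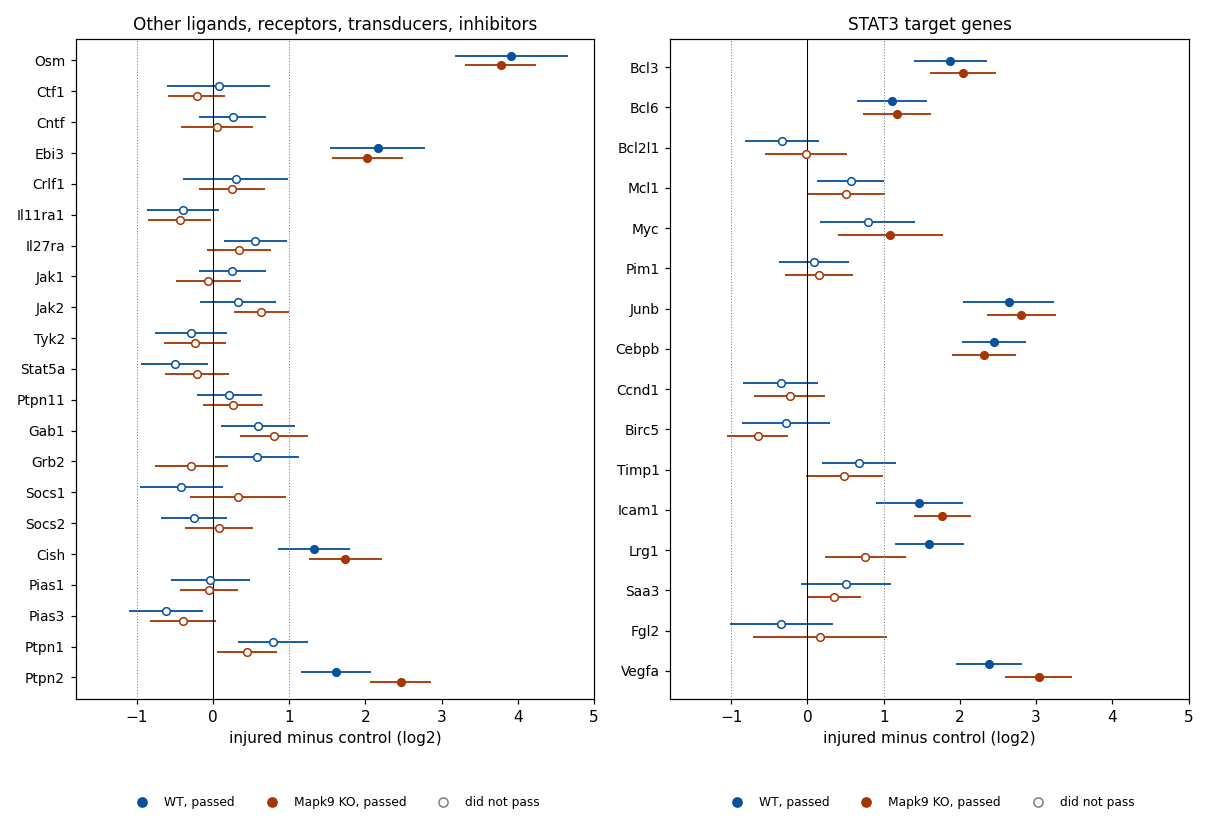
Injured minus control (log2, main probes, 95% intervals of the limma fit) for the further pathway genes in the table, 1 that is not reported here left out, in WT (blue) and Mapk9 KO (brown); filled points passed the test and dotted lines mark a 2-fold difference. Osm lies farthest to the right at 3.92 and 3.78, and the receptor chains and kinases lie within the dotted lines.

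The genes whose main probes followed Il6 and Socs3 most closely over the 12 arrays were found among 14777 genes, as a description, since all points share the split into control and injured arrays. For Socs3 they were 1300002F13Rik (Pearson r = 0.998), Trpm6 (0.995), LOC381140 (0.994), BC003236 (0.994) and Jun (0.993). For Il6, whose probe was detected on only 2 of the 12 arrays so that its values are mostly near background, they were Gna14 (0.977), Fbxo33 (0.975), Gabpb1 (0.973), BC037674 (0.970) and 2810428C21Rik (0.969).

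The tissue was checked against cell type markers, since in bulk samples fewer cells of a type and less RNA per cell cannot be told apart. All 6 chondrocyte markers in the table, Col2a1, Sox9 and Comp among them, were detected on all 12 arrays, and 4 rose after injury in each genotype (mean of the list 10.54 to 10.98 in WT controls and 11.74 to 12.08 in injured WT, 10.33 to 10.98 and 11.85 to 12.10 in Mapk9 KO). Skeletal muscle markers fell with injury, 9 of 10 in WT (list mean 11.70 to 12.94 in controls, 8.76 to 10.85 after injury) and 10 of 10 in Mapk9 KO (13.09 to 13.61, then 9.27 to 10.57). Of 9 macrophage markers, Cd14 rose in both genotypes, and 6 fell in WT (8.45 to 8.72, then 7.67 to 8.26) and 7 in Mapk9 KO (8.56 to 8.72, then 7.57 to 7.69). All 6 neutrophil markers were detected on every array, and Ngp alone rose in both genotypes (list mean 12.88 to 13.56, then 13.83 to 14.02 in WT; 13.21 to 13.73, then 13.52 to 13.99 in Mapk9 KO). No erythroid marker of 6 passed, 1 of 6 endothelial markers rose in WT, and 2 of 3 adipocyte markers, 1 or 2 of 6 osteoblast markers and 2 or 3 of 4 fibroblast markers fell in WT and Mapk9 KO respectively. No marker passed for genotype, although the muscle markers were higher in Mapk9 KO controls, as given above. The part of these shifts in the results above was not tested.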

How the data were processed

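RNA was measured on 12 Illumina mouse BeadChips. Per the file headers, the unprocessed deposited file holds an intensity and a detection p-value (in steps of 1 in 936) for each of 45281 probes. Background was subtracted by the authors by means of the negative controls, vsn normalization followed, and 21004 probes were deposited as log2 values. Samples were grouped by their labels. Between 16930 and 18969 probes were detected on an array, array medians lay between 7.55 and 7.70, correlations between arrays between 0.868 and 0.986, and no pair held identical values. The number of arrays limits the precision.

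The deposited log2 values were tested with limma 3.58.1 (R 4.3.3; functions lmFit and eBayes), and p-values were adjusted by Benjamini-Hochberg over the whole table, for injury in WT, injury in Mapk9 KO, genotype in control hips, genotype in injured hips (6 arrays each) and the interaction (12 arrays, adjusted p only). A fold printed as "at least" sets the mean of the brighter group against, on each array of the undetected group, the larger of 2 values, its own and the lowest among detected probes. It carries no interval, and an adjusted p beside it belongs to the fitted difference. The text names all members, Osm, Mapk9, pathway genes past the threshold, some of the others as examples, marker genes, and the 5 genes most correlated with Il6 and with Socs3 among those detected on at least 3 arrays. The values of 1 listed pathway gene are not reported here, though it is in the counts. Members and gene lists were chosen with earlier results of these data known. Whether the labels' replicates are separate pools of animals is stated only in the study's methods, and p-values measure the spread between these samples.

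Samples from different groups sharing a replicate number (18 pairs) deviated together from their group means, with correlations of 0.153 to 0.390, against -0.289 to 0.0825 for the 36 pairs from different groups with different numbers, so the numbers were taken to pair the samples. The calls in the text come from fits without this block, and the blocked value is printed where it changes a call or a count. Alternatives tried were neqc (normexp background correction and quantile normalization, offset 16) on the table's probes and on all probes, quantile normalization alone, subtraction of each array's median, a filter on detection (3 or more arrays), a single fit over all 12 arrays, a block for the replicate number or for the number in the label code, the methods' t-test, no fold limit, the main probes alone, and leaving out each array in turn. The number in the label code was 1, 1 and 2 for WT replicates 1 to 3 and 1, 2 and 2 for Mapk9 KO, in control and injured hips alike. It is thus partly confounded with genotype, and what it stands for is not known. Promoter windows were matched by symbol to RefSeq sequences (GRCm38.p6), 9 of 10 members with an entry.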

Additional observations from a re-analysis of the deposited data

Results flagged for a closer look

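A Clcf1 probe that the authors left out of the normalized table (ILMN_1257971) was detected on 2 arrays, both of injured Mapk9 KO hips, and on no control array. Its mean intensity before background correction was 143 in WT controls, 158 in injured WT, 123 in Mapk9 KO controls and 192 in injured Mapk9 KO. The other 5 member probes outside the table were detected on no array.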

How the results depend on the processing

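The number of members that rose in WT was 2 with quantile normalization without background correction (Il11 and Socs3), 3 with the methods' t-test (Il6, Il11 and Socs3) and between 4 and 6 with each array left out, and in Mapk9 KO it was 3 with that normalization (Il11, Osmr and Socs3), 5 with the methods' t-test (without Lif) and 6 with each array left out. The count for genotype in control hips was 0 with neqc, on the table's probes or all probes, with that quantile normalization, with all 12 arrays in the fit, with the replicate block and with the methods' t-test, and 0 to 1 with each array left out. The interaction count was 1 with the replicate block (Clcf1) and 0 to 1 with each array left out. Apart from Clcf1, the replicate block changed no member's call. Further pathway genes that rose numbered 10 to 12 in WT and 10 to 11 in Mapk9 KO with each array left out. Of 44 injury results of single genes, 30 kept their call under every setting and 0 reversed. Genotype values near 0 changed sign: in controls, Il11 was -0.000391 with neqc on the table's probes or all probes and -0.0392 with the label code block, Lifr 0.0376 with both neqc fits, 0.0197 with quantile normalization, 0.0213 with array medians subtracted and 0.0877 with the label code block, and Osmr 0.0015 with that block, while the Il6st interaction was -0.0280 with array medians subtracted. With each array left out, the differences in controls spanned -0.287 to 0.312 (Il6), -0.117 to 0.283 (Il11), -0.615 to 0.0922 (Lif), -0.142 to 0.256 (Lifr), -0.138 to 0.0920 (Osmr) and -0.0325 to 0.206 (Stat3), in injured hips -0.189 to 0.201 (Lif) and -0.315 to 0.0158 (Il6st), and for the interaction -0.0219 to 0.406 (Il11), -0.0993 to 0.608 (Lif), -0.125 to 0.206 (Il6st) and -0.378 to 0.0197 (Lifr). The cause was not tested. Il6, Il11, Lif and Clcf1 were undetected on every control array, which limits them to bounds.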
